A study of Mus musculus with 24 samples.

Results

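Defb1, St14, Ly9, Cd52 and Fermt1 are 5 of the 46983 mouse gene identifiers counted in cortex of young and aged mice with and without an experimental stroke. They were chosen by their counts in these libraries, which earlier results had shown to be higher at 18 than at 3 months of age. Their difference between the ages is therefore what chose them, and it is given here as a description with no test. What stroke did to them at each age was tested over all genes. Those tests use the same control and MCAO libraries as the age differences and are not independent of the choice.

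The 24 libraries came from C57Black/6 mice, with 6 animals in each of 4 groups. MCAO_18M and MCAO_3M are mice of 18 and 3 months whose middle cerebral artery was coagulated and cut for good under isoflurane (middle cerebral artery occlusion, MCAO), with parietal cortex taken 3 days later. Ctrl_18M and Ctrl_3M are intact mice of the same ages. The controls had no operation, so every comparison of MCAO with control also holds anaesthesia and surgery, and the labels do not give the sex of the animals. Each library reads the 3′ ends of polyadenylated transcripts and held 3.30 to 13.1 M gene counts. Levels are counts per M gene counts after TMM scaling of the library sizes (CPM). On this scale 1 count stood for 0.0780 to 0.317 CPM.

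The 5 genes encode unrelated proteins. Defb1 is beta-defensin 1, a small secreted peptide of epithelia that damages microbial membranes. St14 is matriptase, a membrane-bound serine protease of epithelia that cuts precursors such as that of hepatocyte growth factor and is held in check by the inhibitors encoded by Spint1 and Spint2. Ly9 (CD229) and Cd52 sit on the surface of leukocytes: Ly9 is a receptor of the SLAM family that binds its own kind on neighbouring cells, and Cd52 is a very short peptide with a large sugar chain and a glycosylphosphatidylinositol (GPI) anchor, the target of the antibody alemtuzumab in humans. Fermt1 is kindlin-1, an adaptor at the tails of beta integrins that is missing in human Kindler syndrome, a disease of fragile skin.

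On GRCm38 the annotation places these protein-coding genes on separate chromosomes: Defb1 on chromosome 8 (21776599 to 21795185, plus strand), St14 on chromosome 9 (31089402 to 31131853, minus strand), Ly9 on chromosome 1 (171588624 to 171607410, minus strand), Fermt1 on chromosome 2 (132904389 to 132945906, minus strand) and Cd52 on chromosome 4 (134082448 to 134095082, minus strand). Cd52 shares 172 of its 1187 exonic bases with Crybg2 on the opposite strand. Whether reads were counted by strand is not given in the sources used here. Reads that fitted more than 1 gene were set aside as ambiguous (0.464% to 0.581% of a library's total). Without counting by strand, Cd52 reads over the shared bases could therefore be missing. The level of Crybg2 itself lay between 1.40 and 5.50 CPM in all 24 libraries. Ly9 lies inside the extent of Cd244a on the opposite strand, with 0 of its 3307 exonic bases shared.

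In stroke tissue Cd52, Ly9 and St14 rose strongly at both ages. At 18 months 3 of the 5 genes rose (St14, Ly9 and Cd52) and 1 fell (Fermt1), where 45.2% of the 14599 genes tested passed the threshold, 23.7% higher and 21.5% lower. At 3 months 4 of the 5 rose (Defb1, St14, Ly9 and Cd52) and 0 fell, where 37.3% of all genes passed, 20.1% higher and 17.3% lower. In each comparison 3 of the 5 (St14, Ly9 and Cd52) had every MCAO library above every control library, which held for 16.0% of all genes at 18 months and 11.1% at 3 months. Tests are edgeR's quasi-likelihood F test, two-sided, with Benjamini-Hochberg adjustment over all tested genes and a threshold of 0.05. The median log2 fold change of the 5 genes was 2.54 at 18 months and 4.59 at 3 months, against -0.03 and -0.04 over all tested genes. All 5 passed the filter on low counts, which they did through the groups where they are high. In a fit of MCAO_3M and Ctrl_3M alone, Defb1, St14 and Fermt1 fell to that filter. Only 2 of the 5 (Ly9 and Cd52) were tested there, and both rose. Since the tissue was measured in bulk, more cells of a type and more RNA per cell cannot be told apart.

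**Figure D1:**
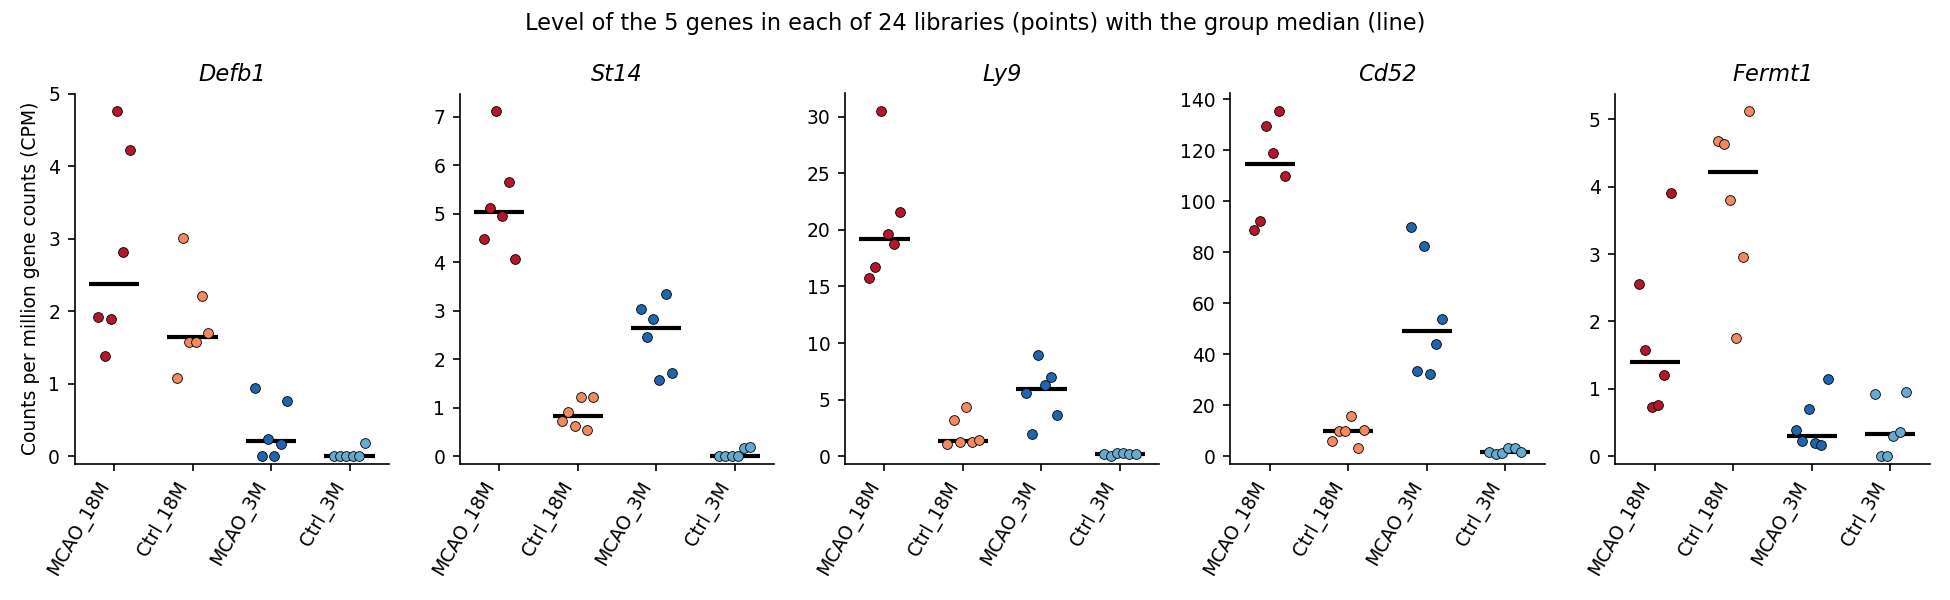
Level of each gene in counts per M gene counts after TMM scaling of library sizes, CPM (vertical axes, linear, a separate scale per gene) in the 6 libraries of MCAO_18M, Ctrl_18M, MCAO_3M and Ctrl_3M (points), with the median of the group (line). Cd52, Ly9 and St14 are highest in MCAO_18M, Fermt1 is highest in Ctrl_18M, and Defb1 is close to 0 in both groups of 3 months.

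Defb1, the secreted peptide, was counted sparsely and mainly in mice of 18 months. Its level had a lowest, median and highest value of 1.38, 2.37 and 4.76 CPM in MCAO_18M and of 1.08, 1.65 and 3.01 CPM in Ctrl_18M. The same values were 0, 0.206 and 0.937 CPM in MCAO_3M and 0, 0 and 0.191 CPM in Ctrl_3M. All 12 libraries of 18 months held Defb1 counts, and they lay above all 12 libraries of 3 months.

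The counts behind these levels were few. Over a group they summed to 108 in MCAO_18M, 52 in Ctrl_18M, 18 in MCAO_3M and 1 in Ctrl_3M. Of the 18 counts in MCAO_3M, 12 came from library A, the deepest of all, and 2 libraries of that group held 0, as did 5 of the 6 in Ctrl_3M. A count of 0 allows up to 3 counts, which is 3 times the 0.149 to 0.301 CPM that 1 count stood for in Ctrl_3M.

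After MCAO at 18 months the log2 fold change of Defb1 was 0.61 ± 0.40 (SE; 6 animals per group) with an adjusted p of 0.222 by edgeR, and 2 of the 6 MCAO_18M libraries exceeded the highest control. At 3 months Defb1 rose by 3.04 ± 0.98 on the log2 scale (adjusted p 0.0160), although the groups overlapped and 3 of 6 MCAO_3M libraries exceeded the highest control. Because Ctrl_3M held 1 count, the pooled ratio of CPM is the plainer figure: 14.2, with a 95% interval of 2.24 to 590 that covers counting error only. That call is lost without library A of MCAO_3M (2.20 ± 1.09, adjusted p 0.121) and with limma voom (1.44 ± 0.65, adjusted p 0.0788). Without library F of Ctrl_3M, which holds the single count, the fitted value is 4.36. In a fit of MCAO_3M and Ctrl_3M alone, Defb1 fell to the low-count filter and was not tested.

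Between the ages, described without a test, Defb1 was 54.4 times higher in Ctrl_18M than in Ctrl_3M by pooled CPM (95% counting interval 9.34 to 2188). In stroke tissue it was 5.93 times higher at 18 months (3.58 to 10.4), from 108 counts in MCAO_18M and 18 in MCAO_3M. The neighbouring defensin genes on the chromosome gave almost nothing: the 3 genes on either side of Defb1, among them Defb50, Defb2 and Defb10, had 0 or 1 count each over all 24 libraries.

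Most other antimicrobial genes that could be tested rose after stroke, and their cell source was not measured. Of 18 on the list 6 could be tested. At 18 months 5 of them rose after MCAO and 0 fell, and at 3 months 6 rose and 0 fell (median log2 fold change of the 6 genes 4.54 and 5.32). Lcn2 (lipocalin 2, which takes iron-binding molecules from bacteria) rose by 4.89 ± 0.56 at 18 months, and Lyz2 (lysozyme) by 4.50 ± 0.45. S100a8, a subunit of the neutrophil protein calprotectin, rose by 4.57 ± 0.55. In controls, where 0.603% of all genes passed the threshold between the ages in either direction, Lyz2 was the 1 gene of the list past it, 2.29 ± 0.51 higher at 18 months (adjusted p 0.0321).

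St14, the protease, was close to undetected in young intact cortex and rose at both ages after stroke. Its lowest, median and highest levels were 4.06, 5.04 and 7.12 CPM in MCAO_18M, and 0.553, 0.822 and 1.22 CPM in Ctrl_18M. In mice of 3 months they were 1.57, 2.64 and 3.34 CPM in MCAO_3M and 0, 0 and 0.191 CPM in Ctrl_3M, where 4 of 6 libraries held no St14 count. The 4 groups did not overlap anywhere: every MCAO_18M library exceeded every MCAO_3M library, these exceeded every Ctrl_18M library, and these every Ctrl_3M library.

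The log2 fold change of St14 after MCAO was 2.54 ± 0.29 at 18 months (adjusted p 6.1e-08), a 5.83-fold rise over Ctrl_18M. At 3 months it was 4.82 ± 0.48 (adjusted p 8.2e-09), in the fit of all 4 groups. Fitted on MCAO_3M and Ctrl_3M alone, St14 fell to the low-count filter and was not tested. With 98 counts in MCAO_3M and 2 in Ctrl_3M, the pooled ratio at 3 months was 38.6 with a 95% counting interval of 10.4 to 323. The rise in mean CPM was 4.35 at 18 months and 2.43 at 3 months, so the rise in CPM was larger at 18 months and the fold larger at 3 months, a difference given as a description. Between the ages St14 was 13.1 times higher in Ctrl_18M than in Ctrl_3M by pooled CPM (3.26 to 114, from 25 and 2 counts) and 2.05 times higher in MCAO_18M than in MCAO_3M (1.60 to 2.63).

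Around matriptase, 7 of the 16 substrates, inhibitors and relatives listed could be tested. At 18 months 4 rose after MCAO and 0 fell. At 3 months 3 rose and 2 fell, with medians over the 7 genes of 1.13 at 18 months and 0.46 at 3 months. Spint1, the inhibitor of matriptase also called HAI-1, rose by 3.02 ± 0.32 at 18 months and by 2.67 ± 0.32 at 3 months. Spint2, the related inhibitor, fell by 1.48 ± 0.45 at 3 months, while its value at 18 months was 0.02 ± 0.41 with an adjusted p of 0.973. Hgf, the growth factor whose precursor matriptase cuts, did not pass the threshold at either age (0.31 ± 0.24 and 0.46 ± 0.26). Its receptor Met rose by 1.52 ± 0.26 at 18 months and had a value of 0.37 ± 0.21 at 3 months. Plau, the urokinase protease whose precursor matriptase can activate, rose by 2.71 ± 0.29 and 2.05 ± 0.32. Between intact mice of the 2 ages Met fell by 2.14 ± 0.25 on the log2 scale at 18 months (adjusted p 1.7e-05), the opposite direction to St14.

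Ly9, the SLAM receptor, rose at both ages after stroke and was highest in aged stroke tissue. Its lowest, median and highest levels were 15.8, 19.2 and 30.5 CPM in MCAO_18M and 1.08, 1.38 and 4.37 CPM in Ctrl_18M. They were 2.01, 5.95 and 8.95 CPM in MCAO_3M and 0, 0.188 and 0.300 CPM in Ctrl_3M. All MCAO_18M libraries lay above all MCAO_3M libraries, and neither MCAO group overlapped its own control. The values of Ctrl_3M rest on 6 counts, 0 to 2 per library.

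After MCAO Ly9 rose by 3.23 ± 0.31 on the log2 scale at 18 months (9.40-fold, adjusted p 2.8e-09) and by 4.64 ± 0.49 at 3 months (25.0-fold, adjusted p 2.4e-08). With 210 counts in MCAO_3M and 6 in Ctrl_3M, the pooled ratio at 3 months was 27.6, with a 95% counting interval of 12.5 to 75.9. Mean CPM rose by 18.4 at 18 months and by 5.39 at 3 months. Between the ages, untested, the log2 fold change was 3.28 ± 0.56 in controls and 1.88 ± 0.27 in stroke tissue, where mean levels were 20.5 ± 5.32 CPM in MCAO_18M and 5.59 ± 2.47 CPM in MCAO_3M (SD, n = 6 each).

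Library C of MCAO_18M, which gave the highest Ly9 value, also stood apart for genes of B cells and plasma cells, a cell type known to carry Ly9. The 9 genes of that list summed to 424 CPM in library C and to 22.8 to 51.4 CPM in the other 5 libraries of the group. Sums elsewhere were 11.2 to 25.5 CPM in Ctrl_18M, 26.4 to 41.4 CPM in MCAO_3M and 14.8 to 33.5 CPM in Ctrl_3M, with Cd79a at 0 in those 3 groups. Of the 3 genes of the list that could be tested, Cd22, Ighm and Jchain rose at 18 months and Cd22, which microglia also express, rose at 3 months. Without library C only Cd22 of the 3 rose at 18 months, while Ighm had 0.45 ± 0.28 (adjusted p 0.202) and Jchain 0.54 ± 0.46 (adjusted p 0.365). Without it the rise of Ly9 at 18 months was 3.08 ± 0.31 (adjusted p 1.2e-08). Library C also had the highest sums of its group for genes of phagocytic microglia (2526 CPM), monocytes (879 CPM) and fibroblasts (1468 CPM). It was not the highest for resident microglia (1120 CPM) or neutrophils (90.8 CPM). The part of any of these cells in its Ly9 value was not tested.

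T cells and natural killer cells, which also carry SLAM receptors, were little counted. The 14 T-cell genes summed to 13.3 to 39.95 CPM in MCAO_18M and 23.4 to 32.3 CPM in Ctrl_18M, and to 20.9 to 37.9 CPM in MCAO_3M and 30.4 to 46.7 CPM in Ctrl_3M. Of the 3 T-cell genes tested 1 rose (Il7r) and 1 fell (Trbc2) at each age. Genes of natural killer cells summed to at most 6.10 CPM in any library, and 0 of 7 could be tested.

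Relatives of Ly9 rose with it. Of 12 SLAM receptors and adaptors listed besides Ly9, 7 could be tested, and 6 rose and 0 fell after MCAO at each age, with Fyn the exception (-0.03 ± 0.13 and -0.09 ± 0.13). The median log2 fold change of the 7 genes was 3.00 at 18 months and 3.44 at 3 months. Cd84, a receptor of the family on myeloid cells and lymphocytes, rose by 3.94 ± 0.40 at 18 months and by 4.68 ± 0.48 at 3 months. Cd48, the ligand of Cd244a, rose by 3.48 ± 0.50 and 2.33 ± 0.66. Cd244a itself rose by 3.89 ± 0.57 and 5.40 ± 0.82. In intact cortex the smallest adjusted p among the 7 between the ages was 0.262, for Cd84 (1.72 ± 0.57). In stroke tissue, where 10.9% of all genes passed between the ages, Cd48 was the 1 relative higher at 18 months (2.25 ± 0.43, adjusted p 0.00116). The adaptor genes Sh2d1a and Sh2d1b2 had no count in any group.

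Cd52, the short GPI-anchored peptide, rose at both ages and had the most counts of the 5 genes behind its values (4424 in MCAO_18M, 258 in Ctrl_18M, 2351 in MCAO_3M and 70 in Ctrl_3M). Its lowest, median and highest levels were 88.7, 115 and 136 CPM in MCAO_18M, and 3.13, 9.88 and 15.9 CPM in Ctrl_18M. In mice of 3 months they were 32.4, 49.0 and 89.8 CPM in MCAO_3M and 0.904, 1.88 and 3.43 CPM in Ctrl_3M. MCAO and control did not overlap at either age. Between the ages they did: 5 of 6 libraries of 18 months exceeded the highest library of 3 months, both in controls and in stroke tissue.

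With MCAO Cd52 rose by 3.62 ± 0.30 on the log2 scale at 18 months (12.3-fold, adjusted p 5.4e-10) and by 4.59 ± 0.35 at 3 months (24.1-fold, adjusted p 2.2e-10). In mean CPM the rise was 103 at 18 months and 53.9 at 3 months. The coefficient of variation in MCAO_18M was 17.1%, against 44.1% in MCAO_3M, where libraries A and C held 89.8 and 82.6 CPM and the other 4 lay between 32.4 and 54.0 CPM. Between the ages, untested, Cd52 was 3.93-fold higher in Ctrl_18M than in Ctrl_3M (log2 1.98 ± 0.38) and 2.00-fold higher in MCAO_18M than in MCAO_3M (1.00 ± 0.26).

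Other GPI-anchored leukocyte proteins did not all move with Cd52. Of 14 genes on this list, which includes Siglecg, the mouse relative of the human receptor for soluble CD52, 11 could be tested. At 18 months 8 rose and 2 fell after MCAO, and at 3 months 7 rose and 2 fell, with medians of 1.21 and 0.67. Bst2 (tetherin, which holds budding viruses at the cell surface) rose by 4.79 ± 0.33 at 18 months and 3.25 ± 0.34 at 3 months. Cd24a, a heavily glycosylated ligand of Siglec receptors, rose by 3.21 ± 0.37 and 1.55 ± 0.35. Thy1, which in brain is a protein of neurons, fell by 0.52 ± 0.08 and by 0.42 ± 0.08. Between intact mice of the 2 ages the smallest adjusted p among the 11 was 0.404, for Ly6a (0.56 ± 0.23). In stroke tissue 7 of the 11 were higher at 18 than at 3 months and 1 (Thy1) was lower, with a median of 0.93, where 10.9% of all genes passed in either direction. Bst2 was 1.88 ± 0.27 higher there and Ly6a 1.20 ± 0.21 higher.

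Fermt1, the integrin adaptor, went the other way and was the only one of the 5 whose highest level was in intact aged cortex. Its lowest, median and highest levels were 0.726, 1.39 and 3.90 CPM in MCAO_18M and 1.75, 4.21 and 5.12 CPM in Ctrl_18M. They were 0.176, 0.307 and 1.15 CPM in MCAO_3M and 0, 0.329 and 0.957 CPM in Ctrl_3M. Intact cortex of the 2 ages did not overlap, while MCAO_18M overlapped with Ctrl_18M: 4 of its 6 libraries lay below the lowest control.

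After MCAO at 18 months Fermt1 fell by 1.10 ± 0.41 on the log2 scale, to 0.468 of its control level (adjusted p 0.0318). This call was close to the threshold. It is lost when any of libraries B, C, D or E of MCAO_18M or A, B or F of Ctrl_18M is left out (adjusted p 0.0522 to 0.0801, log2 -1.07 to -0.93) and with scaling by library totals (-0.98, adjusted p 0.0566). At 3 months the value was -0.02 ± 0.63 (adjusted p 0.982), from 17 counts in MCAO_3M and 14 in Ctrl_3M. The pooled ratio of CPM there was 0.956 with a 95% counting interval of 0.444 to 2.10, so no difference was detectable at this depth. Between the ages, untested, Fermt1 was 7.78-fold higher in Ctrl_18M than in Ctrl_3M (log2 2.96 ± 0.52) and 3.70-fold higher in MCAO_18M than in MCAO_3M (1.89 ± 0.53).

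Genes of neurons fell in the same comparison: 8 of the 9 on the list fell at 18 months and 5 of 9 at 3 months, and 0 rose. Their summed level was 4962 to 8001 CPM in MCAO_18M and 10841 to 12246 CPM in Ctrl_18M. Rbfox3 (NeuN) fell by 0.95 ± 0.12 and Snap25 by 1.03 ± 0.19 at 18 months. Their part in the fall of Fermt1 was not tested.

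The partners of Fermt1 mostly rose. Of 19 kindlins, talins and proteins at integrin tails listed besides Fermt1, 18 could be tested, and 11 rose and 0 fell at 18 months, against 13 and 0 at 3 months, with medians of 1.40 and 1.10. Fermt3 (kindlin-3), the form of blood cells, rose by 3.21 ± 0.27 at 18 months and 2.66 ± 0.28 at 3 months. Fermt2 (kindlin-2), the broadly expressed form, had values of 0.05 ± 0.16 and -0.26 ± 0.16 that did not pass the threshold. Itgb2, the beta chain of leukocyte integrins, rose by 3.22 ± 0.18 and 2.94 ± 0.20, and it was the 1 gene of the list higher in Ctrl_18M than in Ctrl_3M (1.05 ± 0.24, adjusted p 0.0294). Talin 1 (Tln1), which binds the same integrin tails as kindlins, had 0.30 ± 0.13 and 0.27 ± 0.13.

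**Figure D2:**
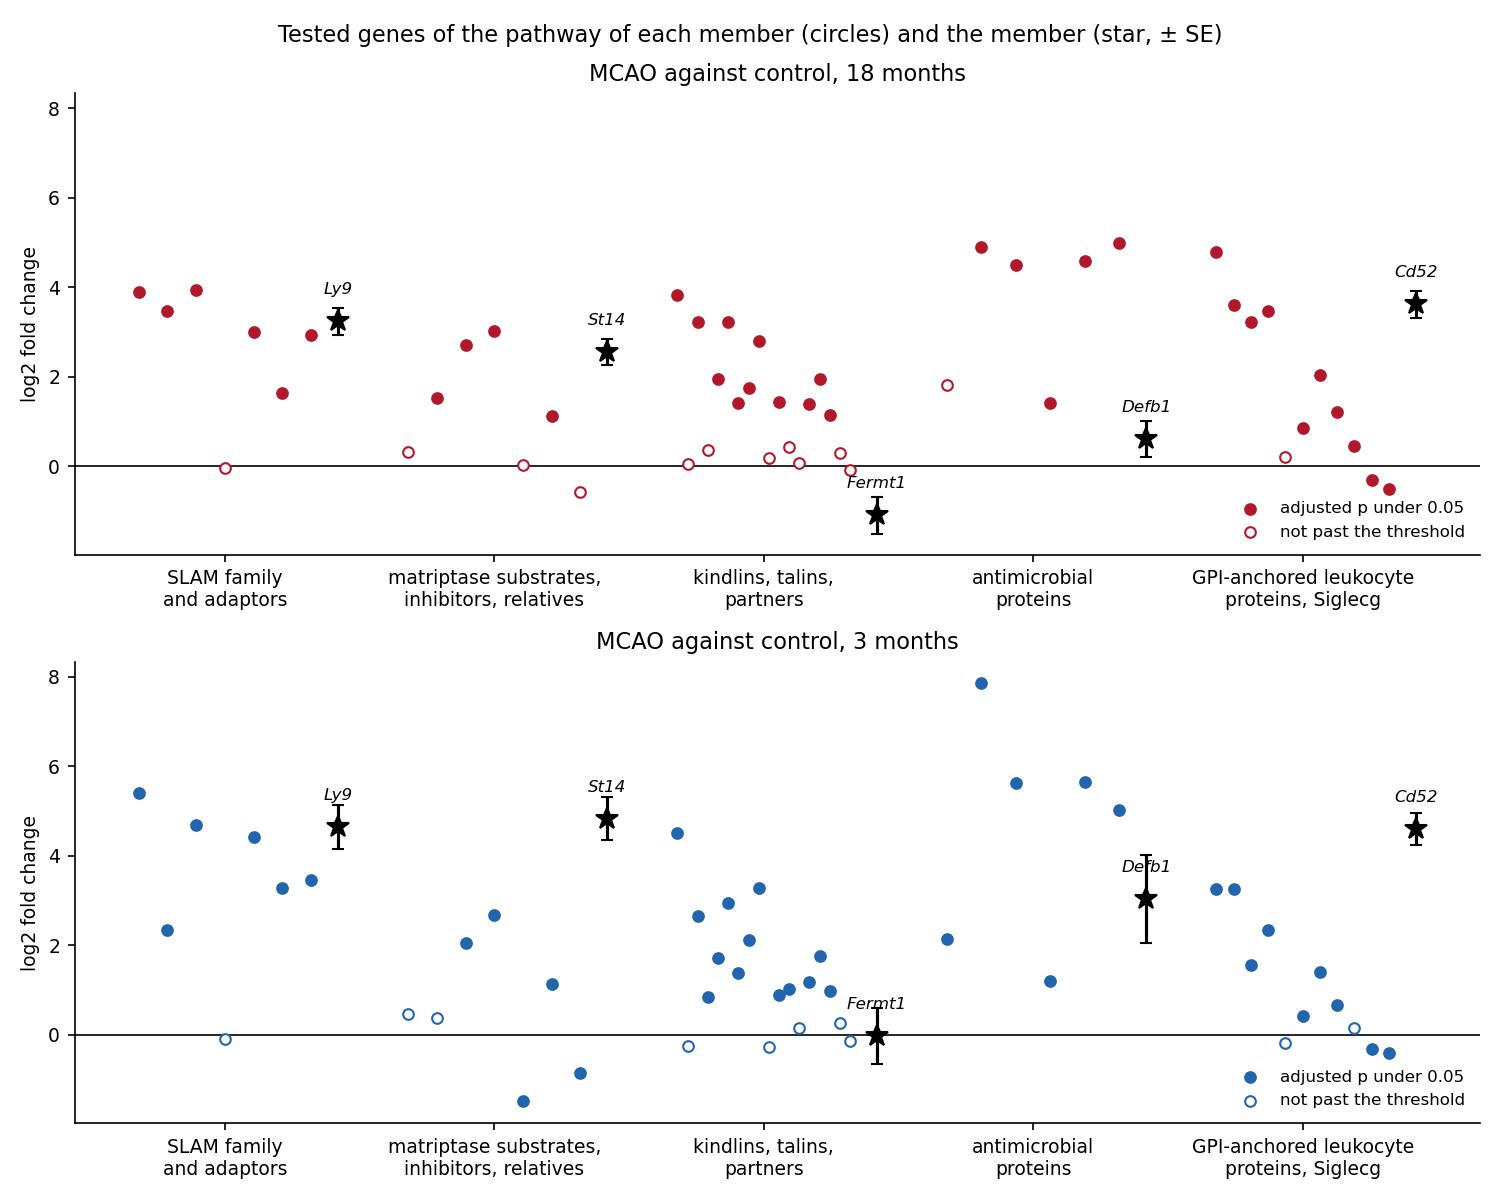
Log2 fold change after MCAO at 18 months (upper panel) and 3 months (lower panel) of each tested gene on the list belonging to each of the 5 genes (filled circles, adjusted p under 0.05; open circles, not past the threshold) and of the gene itself (star, with SE). Ly9, St14 and Cd52 lie above 0 in both panels, and Fermt1 lies below every kindlin, talin or partner at 18 months.

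Set side by side, the 2 MCAO contrasts gave a lower log2 value at 18 than at 3 months for each of the 5 genes. For St14, Ly9 and Cd52 this is a smaller fold increase at 18 months. For Defb1 it is a value that did not pass the threshold at 18 months (0.61) beside 3.04 at 3 months, where Ctrl_3M held 1 count. For Fermt1 it is a decrease at 18 months (-1.10) beside a value near 0 at 3 months (-0.02). The difference of the MCAO effect, 18 minus 3 months, was -2.42 ± 1.06 for Defb1, -2.28 ± 0.64 for St14, -1.41 ± 0.66 for Ly9, -1.07 ± 0.81 for Fermt1 and -0.98 ± 0.46 for Cd52. This quantity is the age difference after MCAO minus that in controls, and both are held as used in the choice of the genes, so it carries no test. A high Ctrl_18M and a low Ctrl_3M, which the choice favours, both lower it. Its shared sign in the 5 genes is therefore not a result apart from the choice. Among all genes 12 passed the threshold for it (0.0822%). The increments in CPM ran the other way for Cd52, Ly9, St14 and Defb1, being larger at 18 months.

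**Figure D3:**
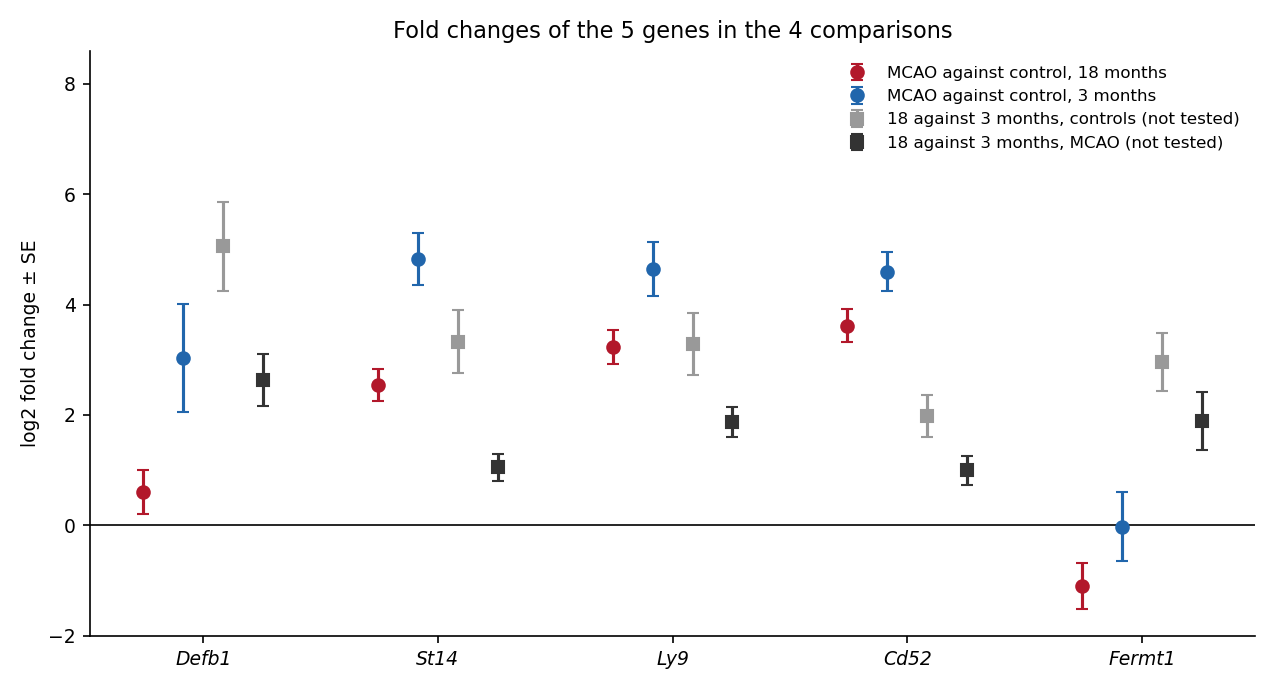
Log2 fold change with its standard error (vertical axis) of the 5 genes after MCAO at 18 and 3 months (circles) and between 18 and 3 months in controls and after MCAO (squares, not tested). The fold after MCAO at 18 months lies below that at 3 months for each gene, and Fermt1 alone has a value below 0 at 18 months, -1.10.

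Every gene of the 5 was higher at 18 months in both conditions, which is what chose them. In controls their median log2 fold change was 3.28 (1.98 to 5.06) and 4 of the 5 did not overlap between the ages, where 0.925% of all tested genes had every library of 18 months above every library of 3 months. In stroke tissue the median was 1.88 (1.00 to 2.63) and 3 of 5 did not overlap, where 2.51% of all genes were so placed. By log2 fold change in controls they ranked from 3 (Defb1) through 21 (St14), 22 (Ly9) and 29 (Fermt1) to 64 (Cd52) of 14599.

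Microglia, the resident macrophages of brain, share many genes with blood leukocytes. The 12 genes of resident microglia summed to 319 to 419 CPM in Ctrl_18M and 327 to 377 CPM in Ctrl_3M, and the smallest adjusted p among them between these groups was 0.576, for Gpr34 (0.32 ± 0.16). Genes of phagocytic (disease-associated) microglia summed to 523 to 703 CPM in Ctrl_18M and 461 to 517 CPM in Ctrl_3M, without overlap, and 5 of 12 were higher at 18 months: Cst7 by 5.06 ± 0.76, Clec7a by 4.58 ± 0.61, Itgax by 4.37 ± 0.97, Spp1 by 1.90 ± 0.44 and Tyrobp by 1.15 ± 0.26 (edgeR, adjusted p 1.7e-04 to 0.0437). After MCAO all 12 resident genes rose at each age, to sums of 1085 to 1350 CPM in MCAO_18M and 846 to 2352 CPM in MCAO_3M. The highest of these, 2352 CPM, was library A of MCAO_3M, which also held the most Cd52 and Defb1 of its group. That library also had the highest sums of MCAO_3M for genes of monocytes (988 CPM), fibroblasts (757 CPM) and epithelium (70.2 CPM). For phagocytic microglia it held 1235 CPM, below the 1475 CPM of library C. The part of these cells in its Cd52 and Defb1 values was not tested. Of the 12 phagocytic genes 12 rose at 18 months and 11 at 3 months. They summed to 1670 to 2526 CPM in MCAO_18M and 666 to 1475 CPM in MCAO_3M, without overlap, and 5 of 12 were higher at 18 months in stroke tissue, led by Clec7a (2.55 ± 0.31) and Spp1 (1.63 ± 0.29).

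Genes of blood-borne myeloid cells moved with stroke as well. The 11 genes of monocytes and infiltrating macrophages summed to 519 to 879 CPM in MCAO_18M and 63.2 to 82.2 CPM in Ctrl_18M, and to 245 to 988 CPM in MCAO_3M and 62.9 to 87.4 CPM in Ctrl_3M. All 9 that could be tested rose at each age, with medians of 5.50 at 18 months and 4.46 at 3 months. In stroke tissue 6 of the 9 were higher at 18 than at 3 months, among them Plac8 (2.87 ± 0.37) and Chil3 (2.32 ± 0.47), while the sums overlapped. The defining monocyte genes Ly6c2 in Ctrl_18M and Chil3 in Ctrl_3M held no count.

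The 9 neutrophil genes summed to 42.3 to 136 CPM in MCAO_18M and 1.44 to 6.27 CPM in Ctrl_18M, and to 13.7 to 57.6 CPM in MCAO_3M and 0 to 2.10 CPM in Ctrl_3M. The 5 tested rose at each age, and 2 of them were higher in MCAO_18M than in MCAO_3M. The 7 genes of border-associated macrophages, 2 of which (Ms4a7 and F13a1) are also on the monocyte list, summed to 47.1 to 153 CPM in MCAO_18M and 7.55 to 16.2 CPM in Ctrl_18M, and to 30.8 to 92.8 CPM in MCAO_3M and 9.57 to 13.5 CPM in Ctrl_3M. Their 6 tested genes rose at each age. The part of microglia and of these myeloid cells in the values of Cd52, Ly9 and St14 was not tested.

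Genes of epithelium, the usual site of Defb1, St14 and Fermt1, were low. The 10 genes summed to 13.5 to 35.4 CPM in MCAO_18M and 7.37 to 23.3 CPM in Ctrl_18M, and to 14.9 to 70.2 CPM in MCAO_3M and 9.95 to 15.5 CPM in Ctrl_3M. The basal keratin gene Krt5 was at 0 in all 4 groups, and Krt14 in all but MCAO_3M. Of the 2 that could be tested, Cdh1 and Dsp rose after MCAO at 3 months (1.45 ± 0.39 and 1.89 ± 0.60), and neither passed the threshold at 18 months or between intact mice of the 2 ages. Choroid plexus genes stood apart in library C of MCAO_3M (2506 CPM) and library D of Ctrl_3M (1440 CPM), against at most 341 CPM elsewhere. Without these 2 libraries each of the 5 genes kept its call in both MCAO comparisons.

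Within groups, Cd52 varied more with Ly9 and with St14 than with Defb1 or Fermt1. Each library's log2 CPM was taken minus the mean of its group, over 24 libraries, and described without a test. The Pearson coefficient was 0.57 between Cd52 and Ly9, 0.56 between Cd52 and St14 and 0.40 between Ly9 and St14, while pairs with Defb1 or Fermt1 ran from -0.16 to 0.32. Over 12923 genes with a mean of at least 1 CPM, the 95th and 99th percentiles of this coefficient were 0.49 and 0.61 for Cd52, 0.41 and 0.53 for Ly9 and 0.38 and 0.52 for St14. The pairs of Cd52 with Ly9 and with St14 thus lay between the 95th and 99th percentiles of Cd52. They lay above the 99th percentile of Ly9 and of St14, respectively. The pair of Ly9 with St14 was below the 95th percentile of Ly9 and above that of St14. All values of a library share its depth, and Defb1, St14 and Fermt1 rest on few counts, so small coefficients among them say little.

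**Figure D4:**
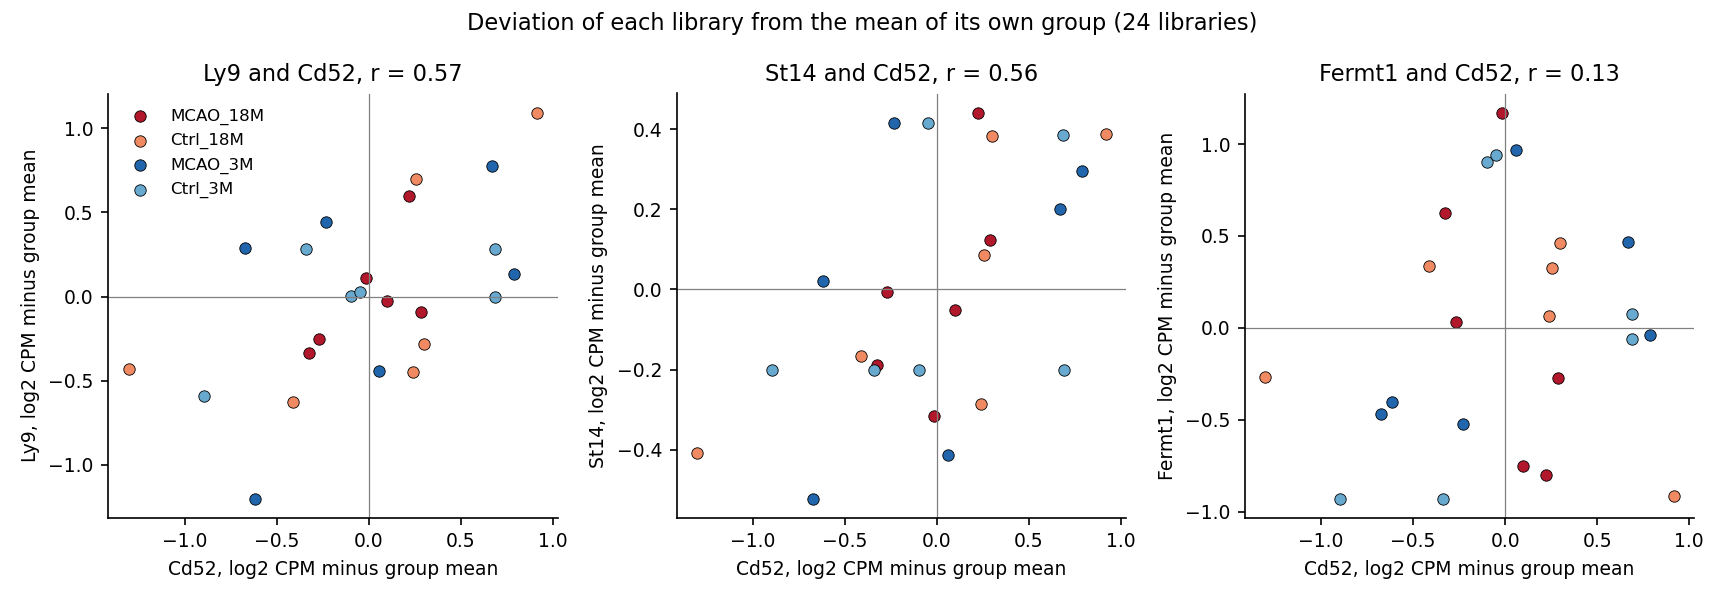
Log2 CPM of Ly9, St14 and Fermt1 (vertical axes) against that of Cd52 (horizontal axes), each minus the mean of its group, with 1 point per library coloured by group. Points for Ly9 and St14 run upward with Cd52 (coefficients 0.57 and 0.56), and those for Fermt1 show little slope (0.13).

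By the same measure and over the same genes, those most like Cd52 were Cd300lf (0.81), Cebpa (0.81), Nxn (0.80), Gpnmb (0.77) and Gng11 (0.74), where the 99th percentile of all genes was 0.61. Cd300lf, an inhibitory receptor of myeloid cells, rose by 5.68 ± 0.47 at 18 months and by 8.004 ± 0.70 at 3 months. Those most like St14 were Ncf1 (0.73), Adgre1 (0.73), Lzts3 (0.71), Ctss (0.68) and Gpnmb (0.67), with a 99th percentile of 0.52. Ncf1 encodes a subunit of the phagocyte NADPH oxidase, Adgre1 the macrophage antigen F4/80 and Ctss cathepsin S. Ncf1 and Adgre1 rose by 3.15 ± 0.24 and 3.23 ± 0.26 at 18 months.

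For Fermt1 the list was Pcdhb9 (0.72), Pnma3 (0.67), Rab3c (0.63), Zfp941 (0.63) and Slit1 (0.62), with a 99th percentile of 0.47. Pcdhb9, a clustered protocadherin, also fell after MCAO at 18 months (-0.92 ± 0.19, adjusted p 2.1e-04), and it was 1.13 ± 0.19 higher in Ctrl_18M than in Ctrl_3M (adjusted p 0.00193). Pnma3, Rab3c, Zfp941 and Slit1 did not share that age difference in controls (-0.14 to 0.06, adjusted p 0.919 to 0.986 by edgeR). After MCAO, Pnma3 and Zfp941 fell at both ages, Rab3c passed the threshold at 3 months only, and Slit1 at neither age. For Ly9 the leading gene was Zfp874b (0.85), and Slc4a1ap, Armt1 and Gyg were also among the closest (0.73 to 0.69). For Defb1 it was Lsm3 (0.81), followed by Mndal, Ccnl2, Snapc4 and Prpf4b (0.77 to 0.76), from a gene with 5 of 6 libraries of Ctrl_3M at 0.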

How the data were processed

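Parietal cortex RNA of 24 mice was read with a QuantSeq 3′ kit from 400 ng total RNA, per the labels' protocols. The authors deposited counts of reads per gene, tied to Trimmomatic, HTSeq and GRCm38 by the submitters' processing notes, with aligner and annotation not given in the sources used here. A second deposited table holds a signal that equals those counts divided by 1 factor per library (relative spread at most 9.5e-07) and was used for that check only. Summary lines and 92 spike-ins stayed out of library sizes; reads outside genes were 25.7% to 34.5% of a library's total.

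All 24 libraries entered 1 edgeR 4.0.16 model (R 4.3.3) with 4 group means, TMM scaling, the default low-count filter (minimum count 10; 14599 genes kept, 32384 not tested), robust dispersions and the quasi-likelihood F test; a log2 value is given ± its standard error. CPM use all gene counts of a library times its TMM factor, and log2 CPM a prior count of 2. Pooled ratios have exact 95% intervals; these and floors cover counting error only, since the labels name no molecular identifiers. Within groups, 60 of 60 library pairs differed by more than sampling noise (chi-square per degree of freedom 3.38 to 76.1). The test was checked on simulated counts. Coordinates are from GENCODE M21.

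The 5 genes and all gene lists were chosen with earlier results of these data known. Named are the 5 genes, the first 3 tested genes of a list and the 3 with the smallest p, a few others for being alone in or out of a call, picked after their values were seen, and for each of the 5 genes the 5 most alike within groups. Alternatives were other scalings (RLE, library totals, spike-ins), filters, DESeq2 1.42.0 and limma 3.58.1 voom, only the 2 groups compared, library letter as a block, and leaving out libraries.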

Additional observations from a re-analysis of the deposited data

Results flagged for a closer look

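Defb1 in Ctrl_3M was picked out because 1 library stood far from the other 5 of its group: library F held 0.191 CPM, which is 1 count, and the other 5 held 0. A group with a single count in 1 library is always picked out in this way, so the mark says no more than that 1 count was found.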

How the results depend on the processing

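The labels do not say that library letters pair animals. The letters were not taken as pairs, since not every same-letter correlation of deviations exceeded 0.1 (-0.30 to 0.31 over 36 pairs, 28 positive, 9 over 0.1). That requirement cannot show the letters to be unpaired. As a hint from the data, all 6 pairs of MCAO_18M with MCAO_3M were positive, 4 of them over 0.1, and a library correlated best with its own letter in 11 of 36 cases. Library F held the most Fermt1 in each of the 4 groups. With the letter as a block 6671 genes passed at 18 months after MCAO (6605 without it) and 5554 at 3 months (5449), the block changed no call of the 5 genes, and the fall of Fermt1 was -1.20 ± 0.32 with an adjusted p of 0.00405 (-1.10 ± 0.41 without the block).

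Leaving out each library in turn, the genes past the threshold numbered 6083 to 7223 for MCAO_18M against Ctrl_18M, 4890 to 5756 for MCAO_3M against Ctrl_3M, 51 to 137 for Ctrl_18M against Ctrl_3M (88 with all libraries) and 951 to 1811 for MCAO_18M against MCAO_3M (1593 with all). The lowest of these last 2 came without library D of Ctrl_18M and without library C of MCAO_18M (1038 without library E of MCAO_18M), and 137 without library A of MCAO_3M. Of the 5 genes, 3 to 4 passed in each MCAO comparison. Fermt1 had -1.501 to -0.93 after MCAO at 18 months and -0.44 to 0.32 at 3 months, and Defb1 2.20 to 4.36 at 3 months. Between the ages in controls Defb1 had 4.82 to 6.39, the highest without library F of Ctrl_3M, which leaves that group at 0 and the value dependent on the prior count, and St14 3.05 to 3.84. In stroke tissue Defb1 had 2.42 to 3.43. The difference of the MCAO effect ran from -3.75 to -1.59 for Defb1 and from -2.79 to -1.996 for St14.

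With limma voom, Defb1 had 1.44 after MCAO at 3 months, 3.88 between control ages and -0.91 for the difference of the MCAO effect; St14 had 2.66 and -1.61 for those last 2, and Ly9 -0.84 for the difference. Without libraries A and C of MCAO_3M, Defb1 had 2.21 at 3 months (adjusted p 0.149), 3.42 between ages in stroke tissue and -1.60 for the difference, and 185 genes passed between control ages. Scaling by library totals gave Fermt1 -0.98 at 18 months. At 3 months Fermt1 changed sign around 0 with RLE (0.0039), library totals (0.0943), no low-count filter (0.0221), DESeq2 (0.0306) and voom (0.19). DESeq2 passed 177 genes between control ages. With only the compared groups fitted, 226 genes passed between control ages and 607 between MCAO ages, and 2 of the 5 genes passed at 3 months because Defb1, St14 and Fermt1 fell to the low-count filter.

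Spike-in scaling moved the median log2 fold change of all genes to -0.32 at 18 months and -0.49 at 3 months after MCAO and to 0.23 between MCAO ages. It passed 2007 genes higher and 4119 lower at 18 months (3462 and 3143 with TMM), 1411 and 6178 at 3 months (2930 and 2519 with TMM), 39 between control ages (33 and 6) and 671 between MCAO ages (646 and 25). Library totals gave 4134 and 2145 at 18 months, and 3722 and 1211 at 3 months. Each of the 5 genes kept its direction and call under spike-in scaling, with St14 at 2.27 and 4.37, Ly9 at 2.96 and 4.16 and Cd52 at 3.37 and 4.08 after MCAO at 18 and 3 months.

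Of 1057 values under alternatives (1, the B-cell genes without library C of MCAO_18M, chosen after seeing the data), 1007 were counted as unchanged. A tested fold change had to keep its direction and side of the threshold. An untested one had to keep its direction and move by less than the replicate spread. A number of genes passing only had to stay within a set factor of the main number, whatever its split into higher and lower. For the other values, the cause was not tested unless named. Depth limits Defb1, St14, Ly9 and Fermt1: Ctrl_3M held 1, 2, 6 and 14 counts of them.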
